A study of Mus musculus with 6 samples.

Results

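Transcripts of 10 secreted matrix proteins were examined in mouse breast tumors: periostin (*Postn*), tenascin C (*Tnc*), fibronectin (*Fn1*), *Sparc*, *Thbs1*, *Thbs2*, *Fbln1*, *Fbn1*, *Fstl1* and *Matn2*. They were chosen by gene symbol as periostin, tenascin and other matricellular or microfibril proteins, and each was found by its NCBI Gene identifier, which makes 10 of the 18460 genes listed in at least 1 tumor. RNA sequencing was available for 6 tumors of BALB/c female mice, 3 in each group. Test tumors came from K14-TSLPtg, PyMTtg, Rag1KO mice that had received CD4+ T cells, and control tumors from PyMTtg, Rag1KO mice that had received the same cells. In both groups the MMTV promoter drives the polyoma middle T oncogene in mammary epithelium, the Rag1 deletion removes the animal's own T and B cells, and sorted CD4+ T cells were injected at 4 wk of age. The groups differ by the K14-TSLPtg transgene, in which the K14 promoter makes keratinocytes overproduce the cytokine thymic stromal lymphopoietin. Advanced tumors were taken at 18–20 wk. The question addressed is how tumors exposed to CD4+ T cells stimulated by this cytokine differ in their transcripts.

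Matricellular proteins are secreted into the extracellular matrix, where they bind collagen, fibronectin, growth factors and integrins and change how cells adhere, more than they bear load themselves. Fibronectin and the fibrillins are structural neighbors, since fibronectin assembles into fibrils on which other matrix proteins are laid down and fibrillin 1 forms the microfibrils that scaffold elastic fibers. In mammary tumors periostin and tenascin C are known as stromal proteins of the tumor border and of metastatic niches.

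Total expected counts, the estimated reads per gene summed over genes, were 9249064, 8908390 and 9090055 for the control tumors and 8373390, 8571403 and 9449565 for the test tumors. Values of a group are given here and throughout in the order of replicates 1, 2 and 3. Levels are given as CPM, counts scaled to library size by the TMM method of edgeR, or as the deposited FPKM where genes are compared with each other, since FPKM also accounts for transcript length. Control replicate 2 stood apart from its group. Across genes, its log2 levels had Pearson correlations of 0.874 and 0.908 with control replicates 1 and 3, compared with 0.921, 0.927 and 0.935 for the test tumors. Between control replicates 1 and 3 the correlation was 0.949. These correlations are across genes, which are not independent replicates, and for the members fits without control replicate 2 are given too. Values of other single genes without that tumor are not reported.

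Labels were checked against marker transcripts. The luminal epithelial keratin *Krt18* was abundant in each tumor, at 335 to 1206 FPKM. *Tslp* had 2, 2 and 3 counts in the control tumors and 12, 7 and 2 counts in the test tumors. Test replicate 3 did not exceed a floor of 3 counts, so the transgene, which acts in keratinocytes, was not borne out in every test tumor. The keratin gene *Krt14* had 135, 530 and 947 counts in the control and 379, 972 and 1104 counts in the test tumors. Why *Tslp* stayed low beside it was not tested. The floor covers counting error and not the spread between tumors. *Rag1*, carried as a deletion by both groups, had 27, 4 and 10 counts in the control and 6, 12 and 9 counts in the test tumors, and counts per gene do not tell whether they lie in the deleted part. The T cell transcript *Cd3e* was near the floor, at 4, 1 and 7 counts in the control and 3, 1 and 5 counts in the test tumors. *Cd4* was above it, with 19, 16 and 35 counts in the control and 9, 13 and 18 counts in the test tumors (log2 fold change −0.75, standard error 0.55, adjusted P of edgeR 0.750), and the leukocyte transcript *Ptprc* had 382, 164 and 320 counts in the control and 99, 138 and 283 counts in the test tumors (log2 fold change −0.72, standard error 0.46, adjusted P of edgeR 0.714). The groups overlapped in both.

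All 10 members passed the filter of edgeR on low counts, which left 13706 genes. With the quasi-likelihood test of edgeR and Benjamini-Hochberg adjustment over all tested genes, 0 of 10 members passed a false discovery rate of 0.05, and 0 of 13706 genes, or 0%, did so. At an unadjusted P under 0.05 in edgeR, 2 members were lower in test tumors and 0 were higher, while 1153 of all tested genes passed, 5.26% of tested genes as lower and 3.15% as higher. DESeq2 called 0 members and 313 genes at a false discovery rate of 0.05, with 2 members and 1386 genes at an unadjusted P under 0.05, and limma-trend on log2(FPKM + 1) called 0 members and 1 gene, with 2 members and 930 genes at an unadjusted P under 0.05. Without control replicate 2, edgeR called 182 genes and 0 members at that false discovery rate, and the log2 fold change of the members was −1.06 for *Postn*, 1.27 for *Tnc*, −2.46 for *Fn1*, −1.20 for *Sparc*, −0.49 for *Thbs1*, −0.98 for *Thbs2*, −1.31 for *Fbln1*, −0.66 for *Fbn1*, −0.90 for *Fstl1* and −0.59 for *Matn2*. That tumor was singled out for its likeness to the test tumors, so leaving it out tends to widen the differences between groups. Without control replicate 1 instead, values were −0.81 for *Postn*, 0.51 for *Tnc*, −1.06 for *Fn1*, −0.52 for *Sparc* and 0.33 for *Thbs1*. In that fit they were −0.09 for *Thbs2*, −1.20 for *Fbln1*, −0.51 for *Fbn1*, −0.30 for *Fstl1* and −0.40 for *Matn2*. With all 6 tumors, the log2 fold change of test over control was below 0 for 9 of 10 members, compared with 48.5% of tested genes, and for *Thbs1* and *Matn2* it turned above 0 in some of the fits that left out a tumor. The median log2 fold change was −0.62 over the members and 0.02 over all tested genes. In 2 members, *Fn1* and *Fbln1*, every test tumor lay below every control tumor, a pattern held by 5.86% of tested genes, and in 0 members by the reverse, which 6.12% of tested genes showed. The count of such lower members was 5 without control replicate 2 and 6 without test replicate 2, where 18.8% and 11.0% of tested genes showed the pattern. The number of members at an unadjusted P under 0.05 in edgeR was 5 without test replicate 2, where 8.16% of tested genes passed in either direction. It was 1 without control replicate 1, control replicate 3 or test replicate 3, where 654, 701 and 1085 genes passed. In bulk tumors, fewer cells of a type and less RNA per cell cannot be told apart.

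**Figure D1:**
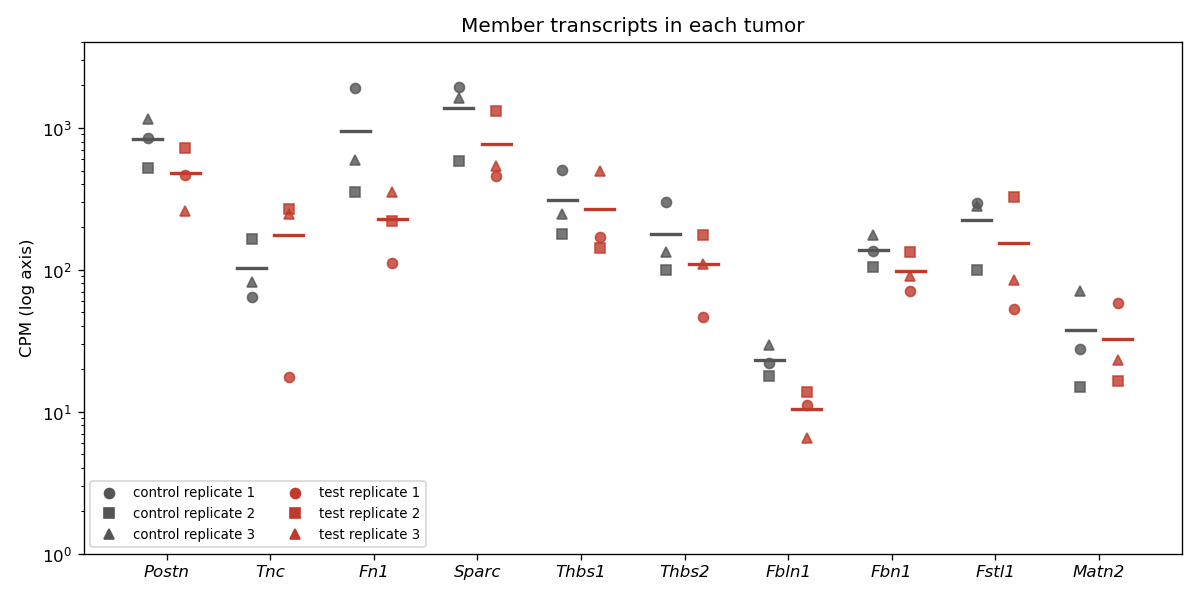
CPM (log axis) of the 10 members in each of the 6 tumors, with a symbol for each replicate and a bar for the mean of the 3 tumors of a group. Only *Fn1* and *Fbln1* had all test tumors below all control tumors, and *Tnc* ran from 17.4 CPM in test replicate 1 to 266 CPM in test replicate 2.

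Levels between members were compared in FPKM. *Sparc* was the most abundant member in each of the 6 tumors, and *Postn* was the second in 5 of 6, with *Thbs1* ahead of it in test replicate 3. Mean FPKM over the 6 tumors was 458.5 for *Sparc*, 205 for *Postn*, 71.4 for *Fn1*, 51.4 for *Fstl1*, 48.8 for *Thbs1*, 23.5 for *Thbs2*, 19.3 for *Tnc*, 11.7 for *Fbn1*, 10.1 for *Matn2* and 4.95 for *Fbln1*. *Sparc* exceeded *Postn*, and *Postn* exceeded *Fn1*, in 6 of 6 tumors. Further down, several neighbors were not separated beyond their spread between tumors: *Fn1* exceeded *Fstl1* in 3 of 6 tumors, *Fstl1* exceeded *Thbs1* in 2 of 6, *Thbs2* exceeded *Tnc* in 3 of 6 and *Tnc* exceeded *Fbn1* in 3 of 6. *Sparc* made up 43.5% to 55.6% of the summed FPKM of the members. That sum was 1486, 597 and 1378 FPKM in the control tumors and 456, 976 and 533 FPKM in the test tumors. In CPM, control replicate 1 or 3 was the highest tumor for 8 of the 10 members, and test replicate 1 was the lowest for 6.

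Fibronectin is the dimeric glycoprotein that links integrins to the matrix, and its fibrils organize much of the tumor stroma. *Fn1* (Gene 14268, chr1:71585473-71653280 on GRCm38.p6) had 1921, 354 and 594 CPM in the control tumors and 112, 220.1 and 351 CPM in the test tumors. Control replicate 1 was far above the other tumors, and the lowest control tumor, replicate 2, lay just above the highest test tumor, replicate 3. Group means were 956 ± 844 (SD, n = 3) and 228 ± 119.5 CPM (SD, n = 3). The log2 fold change was −2.07 with a standard error of 0.70, and the adjusted P of edgeR was 0.483 from an unadjusted P of 0.0191. DESeq2 gave an adjusted P of 0.053, and over all alternatives it ran from 0.053 to 1. Over the alternatives the log2 fold change ran from −2.51 to −1.06, the latter without control replicate 1. The two-sided exact permutation test gave P = 0.1, the smallest value that 3 against 3 tumors allow, so that no exact test of the groups can pass 0.05.

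Fibronectin transcripts differ by cassette exons that encode the extra domains EDB and EDA, whose inclusion is a known feature of tumor and wound stroma. Both exons are shown because 7 *Fn1* transcripts were listed in the files and the deposited transcript length, a mean weighted by the estimated abundance of each transcript, varied between tumors. In the GENCODE M21 annotation on GRCm38 they lie on the minus strand of chromosome 1, inside the coding sequence. EDA has 270 bases and is in 4 of the 7 listed transcripts, and EDB has 273 bases and is in 1 of 7.
*Fn1* EDA exon, chr1:71603660-71603929: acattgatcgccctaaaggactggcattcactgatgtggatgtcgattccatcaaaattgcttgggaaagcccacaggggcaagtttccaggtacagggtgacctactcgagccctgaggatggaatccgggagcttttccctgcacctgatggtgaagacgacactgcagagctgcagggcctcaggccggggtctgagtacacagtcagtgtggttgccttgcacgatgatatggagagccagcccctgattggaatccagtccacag
*Fn1* EDB exon, chr1:71613763-71614035: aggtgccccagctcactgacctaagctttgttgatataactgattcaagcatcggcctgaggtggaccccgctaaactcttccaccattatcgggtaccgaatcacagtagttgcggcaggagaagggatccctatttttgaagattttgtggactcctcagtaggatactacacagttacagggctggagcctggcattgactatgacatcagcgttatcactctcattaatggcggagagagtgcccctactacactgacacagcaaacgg

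The mean *Fn1* transcript length was 7964, 7904 and 7942 bases in the control tumors and 7921, 7916 and 7951 bases in the test tumors. The groups overlapped, with means of 7937 ± 30.4 and 7929.6 ± 19.0 bases (SD, n = 3 each; exact permutation P = 0.8). A mean length does not say which exons were used.

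Fibulin 1 binds fibronectin and elastic fibers, and *Fbln1* was the other member whose groups did not overlap. It had 21.9, 17.8 and 29.6 CPM in the control tumors and 11.1, 13.7 and 6.47 CPM in the test tumors. Test replicate 3 was the lowest tumor and control replicate 3 the highest. Means of the groups were 23.1 ± 5.98 and 10.4 ± 3.65 CPM (SD, n = 3 each). The log2 fold change was −1.15 with a standard error of 0.38, and the adjusted P of edgeR was 0.475 from an unadjusted P of 0.0164 (two-sided exact permutation P = 0.1). It had the lowest mean FPKM of the members, and in 4 of 6 tumors the lowest value, with 61 to 278 counts per tumor, and its log2 fold change ran from −1.40 to −0.89 over the alternatives, with adjusted P values from 0.164 to 1.

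Periostin is a fasciclin domain protein that binds collagen, tenascin C and integrins. *Postn* (Gene 50706, chr3:54359267-54391041) had 842, 518 and 1163 CPM in the control tumors and 463, 720.3 and 258 CPM in the test tumors. Test replicate 2 exceeded control replicate 2, so the groups overlapped, while the other 8 of the 9 pairs of a test and a control tumor had the lower value in the test tumor. Group means were 841 ± 322 and 480.5 ± 232 CPM (SD, n = 3 each). The log2 fold change was −0.81 with a standard error of 0.46, and the adjusted P of edgeR was 0.698 (two-sided exact permutation P = 0.2). It ran from −1.22 without test replicate 2 to −0.49 without test replicate 3 over the alternatives.

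Periostin is also made in several splice forms that differ in the exons near its carboxyl terminus. Of the 10 members, *Postn* with 3 listed transcripts and *Fn1* with 7 were those for which the files list more than 1 transcript, so the deposited length is a readout of the mix of transcripts in them and is constant in the other 8. The cassette exons of *Postn* are shown because the groups did not overlap in this readout. In GENCODE M21 on GRCm38 both lie on the plus strand of chromosome 3 within the coding sequence, and each is in 1 of the 3 listed transcripts, with 81 and 84 bases. The remaining transcript has neither.
*Postn* exon of 81 bases, chr3:54380412-54380492: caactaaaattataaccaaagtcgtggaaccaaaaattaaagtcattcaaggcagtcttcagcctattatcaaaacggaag
*Postn* exon of 84 bases, chr3:54385671-54385754: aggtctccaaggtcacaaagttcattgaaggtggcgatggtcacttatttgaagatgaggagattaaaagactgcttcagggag

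The mean *Postn* transcript length was 3223, 3171 and 3225 bases in the control tumors and 3157, 3169 and 3160.2 bases in the test tumors. Control replicates 1 and 3 were well above the test tumors, and control replicate 2 exceeded test replicate 2 by the narrowest margin. Group means were 3207 ± 30.7 and 3162 ± 6.47 bases (SD, n = 3 each), a difference of 44.5 bases, and the two-sided exact permutation P was 0.1. Among the 3430 genes with several listed transcripts that were detected in all 6 tumors, 6.15% had all control tumors longer than all test tumors and 2.24% the reverse, so more genes leaned the way of *Postn* than the other way. Without each tumor in turn the difference was 35.2 to 62.2 bases, largest without control replicate 2. The length was chosen as a readout after the data were seen, and shares of each transcript were not computed, since the transcript lengths the authors used are not given in the sources used here. In GENCODE M21 the 3 listed *Postn* transcripts have 3121, 3189 and 3205 bases, and the deposited means of control replicates 1 and 3 exceed each of them, so the lengths behind the means were not those of this annotation and the exons shown are not tied to the difference.

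**Figure D2:**
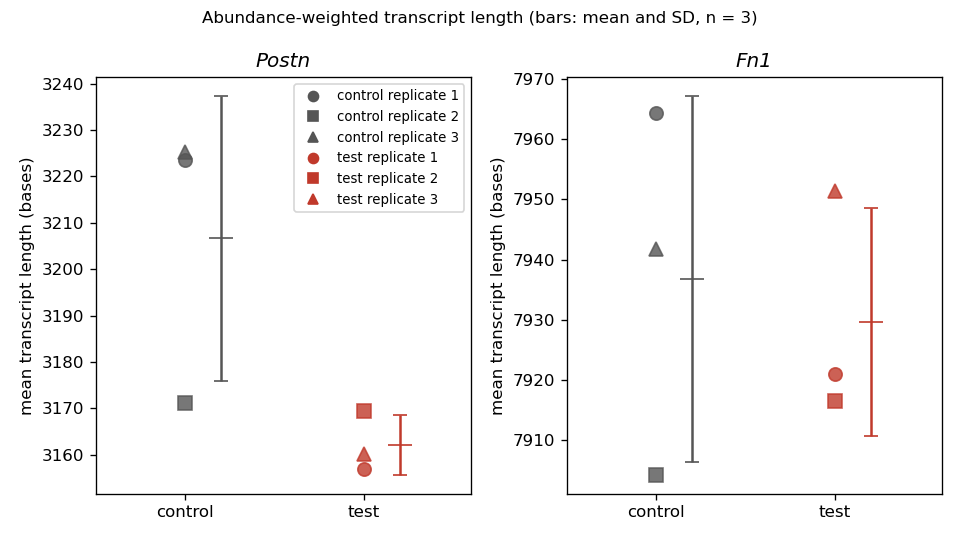
Mean transcript length in bases of *Postn* and *Fn1*, weighted by the abundance of each transcript, in each tumor, with the mean and SD of 3 tumors beside the points. The axes do not start at 0. The 3 control tumors lie at 3171 to 3225 bases for *Postn*, above the 3 test tumors, and the groups overlap for *Fn1*.

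Tenascin C is a large hexameric glycoprotein that counters adhesion to fibronectin, and *Tnc* was the member whose log2 fold change was above 0. *Tnc* (Gene 21923, chr4:63959785-64047015) had 64.3, 164 and 81.9 CPM in the control tumors and 17.4, 266 and 246 CPM in the test tumors. Test replicates 2 and 3 were the highest of the 6 tumors and test replicate 1 the lowest, at 15.3-fold below the highest. Its log2 fold change was 0.77 with a standard error of 0.84, and the adjusted P of edgeR was 0.821 (two-sided exact permutation P = 1). Over the alternatives it ran from 0.13 with limma-trend on log2(FPKM + 0.1) to 1.30 without test replicate 1.

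SPARC binds collagen and regulates its assembly into fibrils. *Sparc* had 1927, 580.1 and 1617 CPM in the control tumors and 460.5, 1315 and 537 CPM in the test tumors. Test replicate 2 lay near the high control tumors and control replicate 2 near the low test tumors, so the groups overlapped. For the groups, the log2 fold change was −0.83 with a standard error of 0.57, and the adjusted P of edgeR was 0.731. Leaving out 1 tumor moved it from −1.46 (without test replicate 2) to −0.52 (without control replicate 1).

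Follistatin-like 1 is a secreted glycoprotein of the SPARC family, and *Fstl1* had 296.5, 99.6 and 281.5 CPM in the control tumors and 52.7, 328 and 85.3 CPM in the test tumors. The high tumors were, as for *Sparc*, control replicates 1 and 3 and test replicate 2. Its log2 fold change was −0.54 with a standard error of 0.71 (adjusted P of edgeR 0.847), and it was −1.70 without test replicate 2 and −0.13 without test replicate 1.

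Thrombospondins 1 and 2 are trimeric glycoproteins that restrain angiogenesis through CD36 and CD47, and thrombospondin 1 also activates latent TGF-β. *Thbs1* ran from 141.5 CPM in test replicate 2 to 508 CPM in control replicate 1, with test replicate 3 nearly as high at 494 CPM. Its log2 fold change was −0.21 with a standard error of 0.58 (adjusted P of edgeR 0.933), and it ran from −0.99 without test replicate 3 to 0.33 without control replicate 1. *Thbs2* ran from 46.6 CPM in test replicate 1 to 299 CPM in control replicate 1, with a log2 fold change of −0.69 and a standard error of 0.56 (adjusted P of edgeR 0.774), which became −0.09 without control replicate 1 and −1.18 without test replicate 2.

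Fibrillin 1 builds the microfibrils that also store latent TGF-β, and *Fbn1* varied the least of the 10 members. It had 136, 104 and 174.5 CPM in the control tumors and 70.7, 134 and 90.3 CPM in the test tumors, a 2.47-fold range over the 6 tumors. Its log2 fold change was −0.49 with a standard error of 0.33 (adjusted P of edgeR 0.723), within −0.77 to −0.29 over the alternatives. Matrilin 2 is an adaptor protein of filamentous networks. *Matn2* ran from 14.9 CPM in control replicate 2 to 71.1 CPM in control replicate 3, with test replicate 1 at 58.5 CPM, and its log2 fold change was −0.21 with a standard error of 0.66 (adjusted P of edgeR 0.947), with −0.93 without test replicate 1 and 0.62 without control replicate 3. *Matn2* overlaps *9430069I07Rik* over 8822 bases of the genome, and reads from the shared stretch could be split between these genes.

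**Figure D3:**
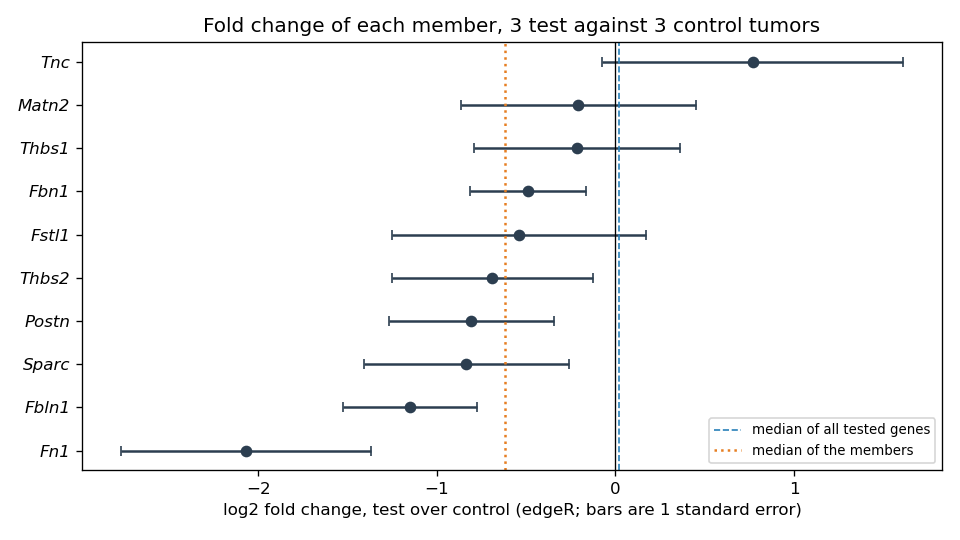
Log2 fold change of test over control tumors for each member from edgeR, with bars of 1 standard error, the median of the members (dotted line, −0.62) and the median of all tested genes (dashed line, 0.02). *Tnc* is the member to the right of 0, and *Fn1* and *Fbln1* lie farthest to the left.

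Members were compared with each other across the 6 tumors on log2(CPM + 0.5). Of 45 pairs, 37 had a Pearson correlation above 0, with a median of 0.44, compared with 49.9% and a median of −0.001 over all pairs of tested genes. These pairs share genes and are not independent. After adjustment, 0 of 45 had an exact permutation P under 0.05 (Benjamini-Hochberg over the pairs), the lowest being 0.167. The pair with the highest correlation was *Sparc* and *Fstl1*, with r = 0.960 (exact permutation P = 0.0278, adjusted 0.208) and Spearman's rho of 0.829 (exact permutation P = 0.0583, adjusted 0.263). Without the 2 tumors farthest from the median of *Sparc* r was 0.971. *Postn* and *Fbln1* had r = 0.935 (exact permutation P = 0.0111, adjusted 0.167) and a rho of 0.943 (exact permutation P = 0.0167, adjusted 0.214), and r was 0.639 without the 2 tumors farthest from the median of *Postn*. *Tnc* and *Matn2* had the lowest correlation, at r = −0.74 (exact permutation P = 0.103, adjusted 0.330) and a rho of −0.66 (exact permutation P = 0.175, adjusted 0.414), with r of −0.55 without the 2 tumors farthest from the median of *Tnc*. The 6 pairs among *Sparc*, *Fstl1*, *Fbn1* and *Postn* had r of 0.778 to 0.960 and rho of 0.714 to 0.943 (exact permutation P for r from 0.0167 to 0.0583, adjusted 0.188 to 0.263). These 4 were picked after the correlations were seen. *Thbs2* also followed *Sparc* (r = 0.855) and *Fstl1* (r = 0.868), each with an exact permutation P of 0.0111 (adjusted 0.167), the lowest value of the 45 pairs together with *Postn* and *Fbln1*.

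Promoters of these 4 members are shown because of these correlations. They are the 250 bases before the annotated start, 5′ to 3′ on the strand of the gene, from RefSeq on GRCm38.p6, which held a promoter for 7 of the 10 members. Capitals mark matches to any of 5 motifs, each searched on both strands. The TATA box was searched as TATAAA. For the AP-1 family of factors the letters were TGANTCA. The motif of the TEAD family, which pairs with YAP, was spelled GGAATG. For the GC box bound by Sp1 it was GGGCGG, and the remaining motif was the CArG box of serum response factor. For *Postn* the window is that of the start nearest to the listed transcripts.
*Sparc*, chr11:55420081-55420330, minus strand: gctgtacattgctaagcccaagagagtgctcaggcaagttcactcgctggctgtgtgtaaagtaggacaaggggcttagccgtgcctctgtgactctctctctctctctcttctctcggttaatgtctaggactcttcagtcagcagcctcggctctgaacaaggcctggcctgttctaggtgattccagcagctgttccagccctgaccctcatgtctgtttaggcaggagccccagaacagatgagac
*Fstl1*, chr16:37776805-37777054, plus strand: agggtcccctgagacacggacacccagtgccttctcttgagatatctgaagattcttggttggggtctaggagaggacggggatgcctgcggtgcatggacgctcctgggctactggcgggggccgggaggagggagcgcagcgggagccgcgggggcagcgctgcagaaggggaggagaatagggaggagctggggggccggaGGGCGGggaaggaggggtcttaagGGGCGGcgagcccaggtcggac
*Fbn1*, chr2:125506439-125506688, minus strand: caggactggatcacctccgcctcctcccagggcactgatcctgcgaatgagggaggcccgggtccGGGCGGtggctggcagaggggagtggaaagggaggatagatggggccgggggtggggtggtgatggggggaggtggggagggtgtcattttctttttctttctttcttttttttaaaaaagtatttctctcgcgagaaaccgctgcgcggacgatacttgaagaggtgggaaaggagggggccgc
*Postn*, chr3:54360857-54361106, plus strand: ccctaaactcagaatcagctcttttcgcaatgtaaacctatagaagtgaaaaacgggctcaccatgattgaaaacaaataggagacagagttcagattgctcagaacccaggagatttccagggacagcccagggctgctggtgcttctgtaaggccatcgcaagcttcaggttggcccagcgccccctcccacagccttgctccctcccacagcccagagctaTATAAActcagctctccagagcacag
TATAAA was found in 3 of the 7 members (*Postn*, *Tnc* and *Thbs2*) and in 14.3% of the 27025 genes with a promoter, counting a gene when any of its windows matched. The 7 members have 10 windows. The match in *Postn* begins 26 bases before the start. GGGCGG was found in 4 of the 7 members (*Fstl1*, *Fbn1*, *Tnc* and *Fbln1*) and in 35.4% of genes, with 2 matches in *Fstl1*. AP-1, TEAD and CArG motifs, found in 7.82%, 14.4% and 1.62% of genes, were in 0 of the 7, and *Sparc* held none of the 5. The matches shown do not overlap one another. A match describes the letters of the window alone.

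The genes most like each of 3 members were taken as the tested genes outside the members, with a mean of at least 10 CPM, that had the highest Pearson r across the 6 tumors, out of 10218 genes compared. They are a description, since genes were selected for this value. For *Postn* they were *Fam181b* (r = 0.975), *Pigk* (r = 0.970) and *Pxmp4* (r = 0.969). For *Tnc* they were *Ran* (r = 0.990), a GTPase of nuclear transport, the G1/S cyclin gene *Ccne1* (r = 0.987) and *Klhdc4* (r = 0.987). *Ccne1* had 14.6, 24.0 and 18.9 CPM in the control tumors and 9.92, 26.1 and 26.0 CPM in the test tumors, which is the order of tumors seen for *Tnc*. For *Fn1* they were *Ift80* (r = 0.994), *Sh3bgrl* (r = 0.990) and *Igfbp5* (r = 0.985), which encodes an insulin-like growth factor binding protein of mammary involution. *Igfbp5* had 19590, 7487 and 10700 CPM in the control tumors and 4672, 7265 and 7323 CPM in the test tumors.

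Since the amount of stroma may differ between tumors and was not measured, each member was also set against the summed FPKM of 11 fibroblast markers in the same tumor. That sum was 253, 685 and 475 FPKM in the control tumors and 398, 1115 and 455 FPKM in the test tumors. Control replicate 1, the highest tumor for *Sparc*, *Fn1* and *Thbs2*, had the lowest sum. This depended on the collagen genes, since without *Col1a1*, *Col1a2* and *Col3a1* the other 8 markers summed to 123.7, 107 and 96.9 FPKM in the control tumors and 249, 247 and 93.2 FPKM in the test tumors, and control replicate 1 was then the highest of its group. *Col1a1* itself was 21.2 FPKM in that tumor beside 782 FPKM of *Sparc*, whereas in test replicate 2 it was 404 FPKM beside 543 FPKM of *Sparc*.

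Per 100 FPKM of fibroblast markers, *Sparc* was 309, 38.1 and 152.5 in the control tumors and 52.0, 48.7 and 51.0 in the test tumors. The 3 test tumors were nearly equal on this scale, and the control tumors lay on both sides of them. The log2 difference of test minus control was −1.27 (two-sided exact permutation P = 0.4), with −0.59 without control replicate 1 and −2.10 without control replicate 2. *Postn* was 95.9, 24.6 and 77.8 in the control tumors and 37.9, 19.3 and 17.8 in the test tumors, a log2 difference of −1.27 (exact permutation P = 0.2). *Fn1* was 88.0, 6.70 and 16.0 in the control and 3.63, 2.34 and 9.53 in the test tumors, and the groups overlapped on this scale, with a log2 difference of −2.29 (exact permutation P = 0.2). *Fbln1* was 2.39, 0.799 and 1.90 in the control and 0.852, 0.344 and 0.419 in the test tumors, with a log2 difference of −1.63 (exact permutation P = 0.2), and test replicate 1 exceeded control replicate 2. Over the 10 members this log2 difference ran from −2.29 for *Fn1* to −0.31 for *Tnc*, with exact permutation P values from 0.2 to 0.8, and in 0 of 10 were the groups apart. For *Tnc* it was 0.67 without test replicate 1, and the group means on the unlogged scale, 3.08 ± 0.53 for control and 3.75 ± 3.46 for test (SD, n = 3 each), were higher in test tumors, so its direction depends on the scale. Without control replicate 2 the log2 difference was −1.88 for *Postn*, −3.12 for *Fn1*, −2.10 for *Fbln1*, −1.80 for *Thbs2*, −1.44 for *Fbn1*, −2.09 for *Fstl1*, −1.38 for *Thbs1*, −1.39 for *Matn2* and −0.22 for *Tnc*. Without control replicate 1 it was −1.26 for *Fn1*, −0.66 for *Fstl1*, −0.37 for *Thbs2* and 0.01 for *Thbs1*.

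The choice of markers mattered for overlap. Per 100 FPKM of the 8 markers without the 3 collagen genes, every test tumor lay below every control tumor in 3 of 10 members, *Postn*, *Fbln1* and *Fbn1* (exact permutation P = 0.1 each), and in 10.2% of all tested genes, since this sum is itself higher in test replicates 1 and 2 than in the control tumors. With the full list of 11 markers 2.86% of all tested genes showed the pattern. Much of the sum of the 8 markers came from 1 gene, *Dcn*. It had 77.8, 33.15 and 25.3 FPKM in the control tumors and 209.85, 107.5 and 34.8 FPKM in the test tumors. Whether the 3 members stay apart without *Dcn* was not tested. Per 100 FPKM of the 8 markers, *Postn* was 196, 157 and 382 in the control tumors and 60.5, 87.0 and 86.8 in the test tumors. For *Sparc* the groups still overlapped on this scale, with 632, 244 and 748.5 in the control and 83.0, 220 and 249 in the test tumors.

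**Figure D4:**
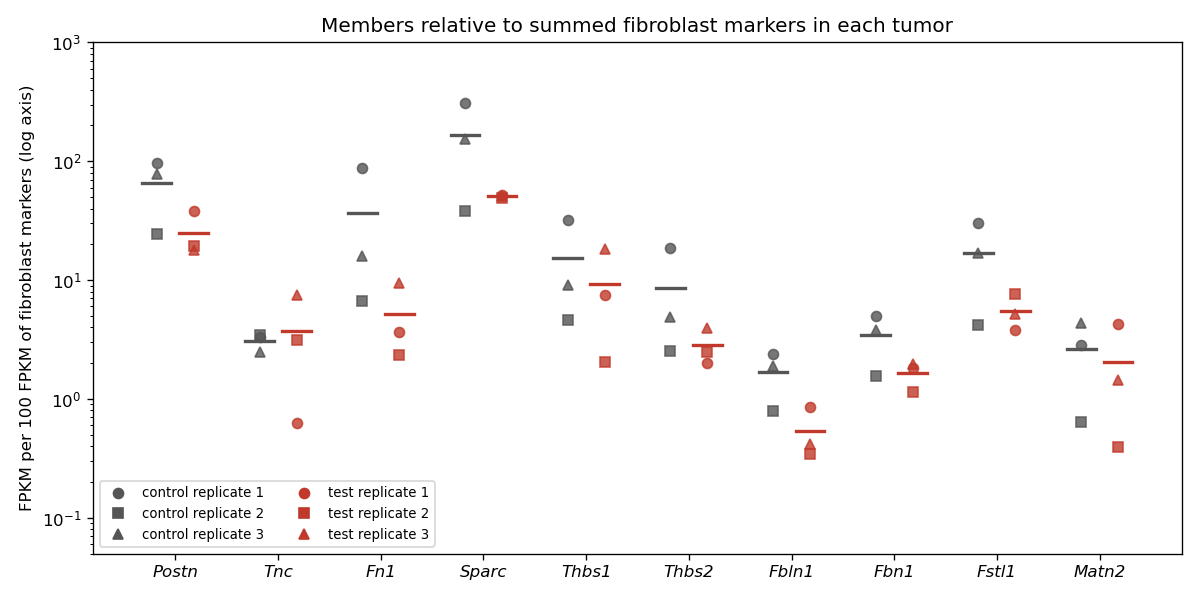
FPKM of each member per 100 FPKM of 11 fibroblast markers (log axis) in each of the 6 tumors, with bars for group means. Control replicates 1 and 3 are above the 3 test tumors for *Postn*, *Sparc*, *Fn1*, *Thbs2*, *Fbln1*, *Fbn1* and *Fstl1*, and control replicate 2 lies among or, for *Sparc*, below the test tumors.

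Related secreted proteins were examined as lists. Of 28 other matricellular genes in the files, 24 passed the filter, and 5 were lower and 3 higher in test tumors at an unadjusted P under 0.05 in edgeR, beside the 5.26% and 3.15% of all tested genes. At a false discovery rate of 0.05 the count was 0, and the median log2 fold change was −0.20. The genes left out were *Tnr*, *Spock3*, *Ccn6* and *Matn3*, with at most 15 counts in a tumor. The groups did not overlap in 2 genes that were lower, *Ccn1* and *Smoc1*, and 3 that were higher, *Tnxb*, *Thbs3* and *Ccn5*, a pattern of 5.86% and 6.12% of all tested genes. *Smoc1*, *Thbs3* and *Ccn5*, with log2 fold changes of −2.06, 1.73 and 1.71, and *Matn4*, at −3.23 the remaining gene with a P under 0.05, were named after their values were seen.

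*Tnxb*, which encodes tenascin X of collagen-rich connective tissue, had the lowest unadjusted P of this list. It had 1.04, 3.03 and 1.28 CPM in the control tumors and 80.7, 10.9 and 10.6 CPM in the test tumors. All test tumors were above all control tumors, and test replicate 1 was far above the rest (log2 fold change 4.24, standard error 0.97, adjusted P of edgeR 0.394). The cartilage protein gene *Comp* had 69.9 and 46.3 CPM in control replicates 1 and 3 but 0.541 CPM in control replicate 2 and 0.212 to 1.71 CPM in the test tumors (log2 fold change −5.69, adjusted P of edgeR 0.425). *Edil3*, which encodes an integrin ligand of endothelium, had 95.2, 4.00 and 26.4 CPM in the control tumors and 1.27 to 4.46 CPM in test tumors (log2 fold change −3.93, adjusted P of edgeR 0.425). *Ccn1*, a YAP target gene that encodes an integrin-binding matricellular protein, had 302, 170.0 and 185 CPM in the control tumors and 54.3, 96.6 and 113 CPM in the test tumors, with no overlap (log2 fold change −1.32, standard error 0.37, adjusted P of edgeR 0.432).

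Of 22 genes of elastic fibers and microfibrils, all of which passed the filter, 17 had a log2 fold change below 0 (48.5% of all tested genes did), and 6 were lower and 0 higher at an unadjusted P under 0.05 in edgeR (5.26% and 3.15% of all tested genes), with 0 at a false discovery rate of 0.05. The median log2 fold change was −0.67. *Ltbp1* and *Ltbp2*, which encode latent TGF-β binding proteins of the microfibril, and *Fbln2*, a relative of *Fbln1*, were among the 4 genes with the lowest P. *Ltbp1* had 421, 106 and 169.8 CPM in the control tumors and 75.1, 52.4 and 61.8 CPM in the test tumors (log2 fold change −1.88, standard error 0.51, adjusted P of edgeR 0.421). *Fbln2* had 212, 110.7 and 350.3 CPM in the control and 66.8, 105 and 51.2 CPM in the test tumors (log2 fold change −1.59, standard error 0.47, adjusted P of edgeR 0.454). The groups did not overlap in these 3 genes, a pattern of 5.86% of all tested genes. *Hmcn1*, which encodes hemicentin 1, had 243 and 138 CPM in control replicates 1 and 3 and 2.76 to 9.34 CPM in test tumors, a range that held control replicate 2 as well (log2 fold change −4.63, adjusted P of edgeR 0.394). In the opposite direction, all test tumors were above all control tumors for *Mfap5*, *Ltbp4* and *Lox*, a pattern of 6.12% of all tested genes. These were named after their values were seen and had log2 fold changes of 1.72, 0.76 and 0.60.

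Of 18 receptor genes for these proteins, integrins, syndecans, CD36, CD47 and others, 2 were lower and 1 was higher in test tumors at an unadjusted P under 0.05 in edgeR, again beside 5.26% and 3.15% of all tested genes. At a false discovery rate of 0.05 the count was 0, and the list's median log2 fold change was −0.23. *Itga9*, a receptor subunit for tenascin C, had 38.0, 21.8 and 32.5 CPM in the control tumors and 8.65, 14.2 and 17.7 CPM in the test tumors, with no overlap (log2 fold change −1.19, standard error 0.36, adjusted P of edgeR 0.454). The thrombospondin receptor gene *Lrp1* had 1390.0, 169 and 807 CPM in the control and 292, 134 and 121 CPM in the test tumors, with overlap through control replicate 2 (log2 fold change −2.11, adjusted P of edgeR 0.491). The syndecan genes *Sdc1* and *Sdc4* were above every control tumor in each test tumor, with log2 fold changes of 0.70 and 0.62 (adjusted P of edgeR 0.591 and 0.618). Groups without overlap, 1 gene as lower and 2 as higher in this list, were found in 5.86% and 6.12% of all tested genes. *Itgb1*, the integrin β1 chain, had the highest mean FPKM of the list and a log2 fold change of −0.47, but in each test tumor *Sdc4* was ahead of it.

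Markers of cell types moved with some of these values, and their part in the results was not tested. Beside the lists given here and below, 5.26% of all tested genes were lower and 3.15% higher at an unadjusted P under 0.05 in edgeR. At a false discovery rate of 0.05 the count in each list was 0. Summed FPKM of the 5 luminal epithelial markers was 1024, 2015 and 866 in the control tumors and 2702, 2622 and 2788 in the test tumors. All 5 had a log2 fold change above 0, while 48.5% of all tested genes were below 0. Of the 5, 3 (*Krt8*, *Krt18* and *Krt19*) had an unadjusted P under 0.05 in edgeR, compared with the 3.15% of all tested genes. *Krt18* was the most abundant, and the groups did not overlap in the sum. Control replicate 2 was the highest of the control tumors for this list. Of the 11 fibroblast markers, among which *Col1a1* had the highest mean FPKM but *Dcn* was ahead in control replicate 1 and test replicate 1, 8 were higher and 3 lower, and *Dpt*, named after its value was seen, was the gene with an unadjusted P under 0.05 (log2 fold change 1.64). The list of 7 pericyte and smooth muscle markers, led by *Acta2*, summed to 132, 146 and 945 FPKM in the control and 414.5, 262 and 113 FPKM in the test tumors, with 5 genes lower, 2 higher and 0 at an unadjusted P under 0.05.

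Among 5 basal markers, where *Krt5* had the highest mean FPKM but *Trp63* was ahead in control replicate 1 and *Krt14* in test replicate 2, 4 were lower and 1 higher, with 1, *Trp63*, at an unadjusted P under 0.05 in edgeR, and the sum was 157, 105 and 337 FPKM in the control and 138, 143 and 189 FPKM in the test tumors. The 5 macrophage markers, led by *Lyz2*, were all lower, with 0 at an unadjusted P under 0.05, and summed to 251, 275 and 521.5 FPKM in the control and 169.5, 351 and 149.5 FPKM in the test tumors. The 5 endothelial markers, with *Pecam1* highest in mean FPKM but *Emcn* ahead in test replicate 2, summed to 29.3 to 41.8 FPKM in each tumor, with 2 lower, 3 higher and 0 at an unadjusted P under 0.05. Platelet markers were low, with *Gp9* at 3 counts or fewer in each tumor, *Pf4* as the gene with the highest mean FPKM, at 3 to 48 counts, and sums of 1.6 to 9.6 FPKM.

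Markers of muscle and fat differed between tumors, and where these transcripts came from was not tested. The 6 skeletal muscle markers, with *Acta1* highest in mean FPKM but *Tnnt3* ahead in test replicate 1, were all higher in test tumors, with 0 at an unadjusted P under 0.05 in edgeR, and summed to 4.5, 94.3 and 2.7 FPKM in the control tumors and 427, 98.7 and 57.0 FPKM in the test tumors. Control replicate 2 thus lay with the test tumors. The 5 adipocyte markers, of which *Adipoq* alone passed the filter and was higher at an unadjusted P under 0.05 in edgeR, summed to 0.1, 3.3 and 1.8 FPKM in the control and 85, 21.7 and 1.0 FPKM in the test tumors. Test replicate 1, the lowest tumor for 6 members, was the highest for both lists.

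Of 5 cartilage and bone markers in the files, 4 passed the filter, and *Acan*, which defines cartilage, had at most 7 counts in a tumor. Of the 4, 3 (*Col2a1*, *Runx2* and *Bglap*) were lower at an unadjusted P under 0.05 in edgeR, as were 5.26% of all tested genes. At a false discovery rate of 0.05 the count was 0. *Bglap* was near the floor in the test tumors, at 3.19, 5.59 and 1.06 counts, so the size of its change cannot be read. The highest mean was that of *Col2a1*, with 447, 2.51 and 59.4 FPKM in the control tumors and 0.76, 2.97 and 0.66 FPKM in the test tumors. That mean rests on control replicate 1, and in the other 5 tumors *Sox9*, named after its values were seen, was ahead with 47.8 to 97.2 FPKM (log2 fold change 0.46, adjusted P of edgeR 0.784). Control replicates 1 and 3, where *Col2a1* and *Comp* were high, were also the tumors with the most *Sparc* per fibroblast marker.

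**Figure D5:**
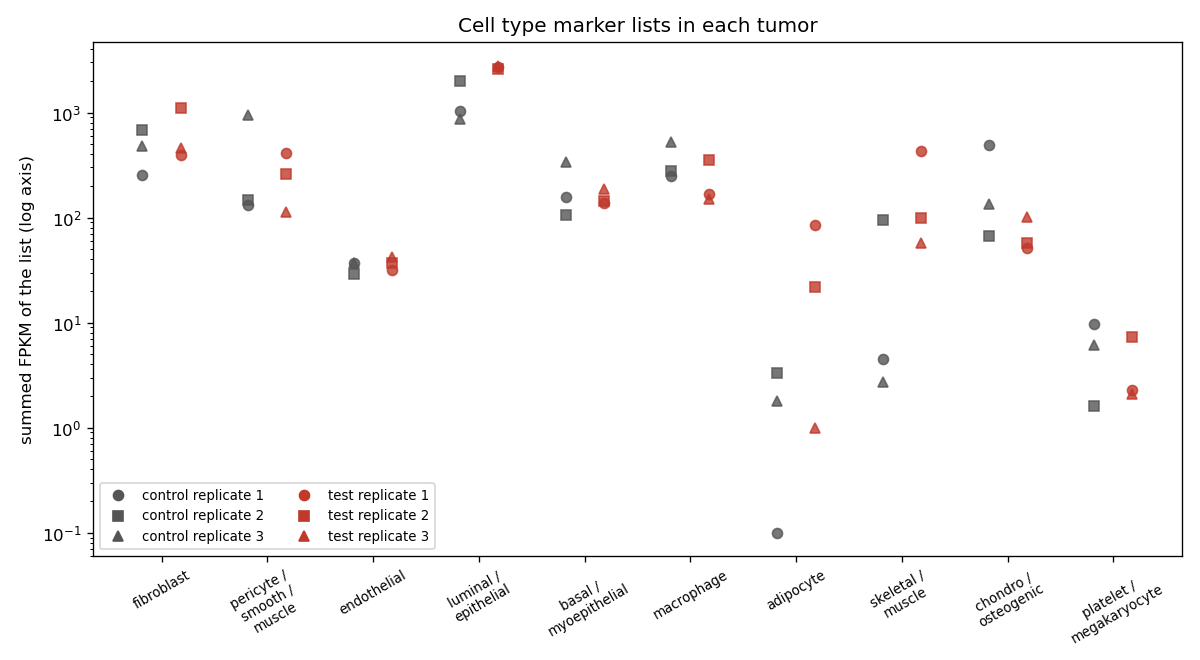
Summed FPKM (log axis) of 10 cell type marker lists in each of the 6 tumors. Luminal epithelial markers lie at 2622 to 2788 FPKM in the test tumors, above the 3 control tumors, while the fibroblast sums of the groups overlap.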

How the data were processed

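Libraries were sequenced from 3 test and 3 control tumors, grouped by the sample labels. The authors aligned reads to mm10, and the submitters' processing notes name BWA, Bowtie and RSEM. Per gene the authors deposited an expected count without normalization, the FPKM, scaled for length and depth, and a transcript length. Genes not listed in a tumor were set to 0. Of 18460 genes, 18400 matched the RefSeq table of GRCm38.p6. Totals ran from 8373390 to 9449565 counts per tumor, and 3 counts were taken as the floor. The versions of BWA, Bowtie and RSEM used by the authors are not given in the sources used here.

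Expected counts were rounded and tested in R 4.3.3 with edgeR 4.0.16 (filterByExpr, TMM, quasi-likelihood test without covariates, Benjamini-Hochberg adjustment), after a test on simulated data. The biological coefficient of variation was 0.434. The standard error is the log2 fold change divided by the square root of F. Exact permutation tests were two-sided, on log2(CPM + 0.5) or log2 ratios of FPKM. Python 3.11.15, pandas 2.3.3 and scipy 1.17.1 were used for descriptions, and exons and transcripts came from GENCODE M21. Alternatives used DESeq2 1.42.0, limma 3.58.1, RLE, other filters, the replicate block and each tumor left out. The members and lists were chosen with earlier results of these data known.

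Named genes are the 10 members, the 4 tested genes with the lowest unadjusted P of each related list, genes of these lists that the filter left out, in each cell type list the most abundant gene and those with 3 counts or fewer, the 3 genes most like each of *Postn*, *Tnc* and *Fn1*, and label checks. Others were named after their values were seen. Of the planned cell type lists, 1 is not reported here.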

Additional observations from a re-analysis of the deposited data

How the results depend on the processing

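Over 13 alternatives, 0 of 10 members passed a false discovery rate of 0.05, and 124 of 130 fold changes of members kept their direction. The 6 that reversed were *Thbs1* (log2 fold change 0.33 without control replicate 1, 0.03 without test replicate 1, 0.10 without test replicate 2, against a lowest value of −0.99 without test replicate 3) and *Matn2* (0.62 without control replicate 3, 0.11 without test replicate 2, 0.003 without test replicate 3, and −0.93 without test replicate 1). Among all tested genes, 313 passed with DESeq2, 1 with limma-trend on log2(FPKM + 1), and 0 to 182 without each tumor in turn, where 654 to 2020 had an unadjusted P under 0.05. Members at an unadjusted P under 0.05 numbered 1 to 5 without each tumor, beside 4.65% to 14.3% of all tested genes. Members lower in every test tumor numbered 2 to 6, beside 7.19% to 18.8% of all tested genes. Per fibroblast markers, the difference reversed for *Tnc* (0.67 without test replicate 1, −1.11 without test replicate 3), *Thbs1* (0.01 without control replicate 1, 0.089 without test replicate 2, −1.49 without test replicate 3) and *Matn2* (0.31 without test replicate 2, −1.40 without test replicate 1). With the replicate number as a block, 1 member and 1056 genes had an unadjusted P under 0.05 and 0 genes passed. Deviations of equally numbered tumors from their group means had correlations of −0.02, 0.12 and −0.14. Of the control tumors, replicate 2 alone correlated best with the test tumor of its number. Deviations from a mean of 3 tumors sum to 0 in each group, so these values cannot tell whether equally numbered tumors were paired. The transcript length alternatives were added after seeing the data. The causes were not tested. With 3 tumors a group, exact tests of the groups cannot pass 0.05, and genes near 3 counts cannot be compared.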
